A study of Rattus norvegicus with 10 samples.

Results

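Spliced intergenic assembled transcripts are RNAs that the transcript assembler pieced together from reads across at least 1 splice junction in stretches of the genome where the annotation placed no gene. They were taken from a table of rat liver isoforms as the rows that carry the intergenic class code (u), an assembler name beginning with MSTRG and 2 or more exons. The rule gave 1783 of 51430 isoform rows, in 1176 of 31202 loci, a locus being all rows under 1 assembler gene identifier. None of the values used to choose them was an expression level, although a row had to be assembled from reads to be in the table. Of the loci, 937 held 1 such row, 145 held 2 and 94 held 3 or more. None of the 1783 rows carried a gene name, and none overlapped an annotated row, that is, a row whose class code (=) marks a match to a reference transcript. Positions throughout are those of the table, on Rnor_6.0.

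As background, intergenic transcription units that are spliced but match no annotated gene include long non-coding RNAs, unannotated exons of neighbouring genes, and genes that a given annotation release lacks. Long non-coding RNAs are made by the same polymerase as messenger RNAs, are usually present at lower levels and in fewer tissues, and some regulate the genes beside them while others are by-products of promoters that fire in both directions. The liver is dominated by hepatocytes, which secrete most plasma proteins, so transcripts near genes of secreted proteins can reach high levels there.

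The livers came from wild-type Wistar rats made diabetic by a diet with 60% of its energy as fat for 4 weeks and then streptozotocin, a toxin of the insulin-producing beta cells, at 35 mg/kg, and entered at a fasting glucose above 16.7 mmol/L. Rats were allocated at random, matched for body weight, to sleeve gastrectomy (SG), the surgical removal of most of the stomach, or to a sham operation (SHAM), with 5 libraries in each group. A fast of 16 h is recorded for both groups. SG livers were taken 3 months after surgery, whereas for SHAM the labels name no interval. Time after surgery and the operation itself cannot be told apart. All animals of both groups were diabetic, no untreated control was sampled, and the labels do not state that each library is a separate rat. The p-values therefore refer to the spread among these 10 libraries, which may be technical.

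Library totals ran from 77617460 to 92110190 estimated counts in SG and from 65824088 to 85520959 in SHAM. The tissue label matched its markers: albumin (Alb) stood between 15517 and 27809.9 FPKM (fragments per kilobase, corrected for depth), and all 6 hepatocyte markers were in the table. SG 2 and SHAM 5 had the lowest median correlation with the other libraries (0.749 and 0.758), against 0.763 to 0.777 for the rest. In whole-liver RNA, fewer cells of a type and less RNA per cell cannot be told apart.

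Because these transcripts are defined by position, the sequences shown are those of the annotated genes that they adjoin. Of the 1783 rows, 10 had a microRNA gene as their nearest annotated gene, in 9 microRNA genes, of which 7 matched a mature sequence in RefSeq's GRCr8 tables. Seed bases 2 to 8, which pair with target RNAs, are in capitals.
rno-miR-29b-3p: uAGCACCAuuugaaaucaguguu
rno-let-7c-5p: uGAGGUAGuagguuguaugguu
rno-miR-193b-3p: aACUGGCCcacaaaguccc
rno-miR-222-3p: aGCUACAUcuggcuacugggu
rno-miR-31b: cUAUGCCAgcaucuugccu
No seed is shared among these 5. The libraries do not measure mature microRNAs, so the values below are those of the neighbouring long transcripts only.

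MSTRG.16370.1 began 7 bases from Mir29b1 and ran away from it on the opposite strand, as a 2-exon row of 39463 nt at chr4:58344398-58383886. The gap between its exons was only 26 bases, and whether that gap is a true intron was not tested. Its level was 3.07, 4.51, 2.88, 3.97 and 3.79 FPKM in SG 1 to 5 and 3.06, 4.13, 3.13, 1.84 and 3.06 FPKM in SHAM 1 to 5. The groups overlapped (log2 fold change, SG over SHAM, 0.20, SE 0.21, adjusted p = 1.0 by edgeR's quasi-likelihood test). On the other strand, MSTRG.16369.1 spanned chr4:58344398-58406982 and was 0 to 1.14 FPKM over the 10 libraries. MSTRG.7269.1, a 6-exon RNA 43231 bases upstream of Mir193b on its strand, lay between 1.27 and 2.15 FPKM, and MSTRG.21683.1, 36160 bases upstream of Mirlet7c2 on its strand, between 0.818 and 1.6 FPKM. MSTRG.24194.1, 74402 bases upstream of Mir222, ranged from 0.0 to 2.89 FPKM. MSTRG.18322.2 abutted Mir3554, the gene of miR-31b, with 0 bases between them, and was at 0.0 FPKM in SHAM 1, 2 and 3 and at most 0.69 FPKM elsewhere.

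Divergent neighbours, which are transcribed away from each other and so share the DNA between their starts, are the second set for which sequence bears on the data. Of the rows, 60 were divergent to an annotated gene within 1 kb of it, beside 47 genes, and 31 of these genes had exactly 1 promoter in RefSeq's GRCr8 table. Over the 250 bases upstream of those 31 starts the median GC content was 56.8% and the median number of CpG dinucleotides 15, against 51.2% and 5 over the 33469 promoters in the table. Motifs were searched on both strands as exact letters. The core promoter motif TATAAA was present in 4 of the 31, the Sp family motif GGGCGG in 13 and the NF-Y motif CCAAT in 14, against 12.9%, 30.5% and 34.0% of all promoters. A match is a string in the window and not evidence of a bound factor. Windows of 4 genes are printed, for a glycolipid enzyme, a secreted protein, an autophagy protein and a scaffold protein, chosen because their pairs had an unadjusted permutation p under 0.05. Each is the 250 bases upstream of the gene's start on the gene's strand, with capitals marking a motif on either strand (ATTGG being the reverse complement of the NF-Y motif).
Pigb: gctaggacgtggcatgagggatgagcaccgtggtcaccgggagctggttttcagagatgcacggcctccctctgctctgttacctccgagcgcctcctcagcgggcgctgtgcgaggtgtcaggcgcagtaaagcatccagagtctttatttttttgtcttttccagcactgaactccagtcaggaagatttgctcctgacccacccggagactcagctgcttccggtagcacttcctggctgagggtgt
Azgp1: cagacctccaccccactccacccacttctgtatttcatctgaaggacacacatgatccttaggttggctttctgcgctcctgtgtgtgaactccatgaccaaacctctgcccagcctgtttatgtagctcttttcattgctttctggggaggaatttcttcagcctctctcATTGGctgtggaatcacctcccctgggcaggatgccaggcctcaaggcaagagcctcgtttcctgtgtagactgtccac
Tp53inp2: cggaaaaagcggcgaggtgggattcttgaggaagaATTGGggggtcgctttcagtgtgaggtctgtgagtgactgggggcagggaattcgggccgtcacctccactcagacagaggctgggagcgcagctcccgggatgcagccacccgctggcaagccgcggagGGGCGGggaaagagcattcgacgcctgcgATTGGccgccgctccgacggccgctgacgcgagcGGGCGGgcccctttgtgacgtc
Erc1: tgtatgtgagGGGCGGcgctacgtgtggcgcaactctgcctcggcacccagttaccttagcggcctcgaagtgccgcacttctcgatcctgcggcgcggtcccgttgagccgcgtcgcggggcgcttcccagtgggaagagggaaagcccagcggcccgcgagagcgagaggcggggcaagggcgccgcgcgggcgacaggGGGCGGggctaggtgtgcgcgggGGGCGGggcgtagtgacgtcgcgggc
The 4 windows differ in composition. Erc1's had 73.2% GC and 36 CpG dinucleotides, Tp53inp2's 66.8% and 25, Pigb's 57.6% and 12, and Azgp1's 52.4% and 2. Pigb's window held none of the motifs searched.

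Most spliced intergenic transcripts were short chains of exons at low levels. Of the 1783 rows, 1243 (69.7%) had 2 exons, 227 had 3, 170 had 4 or 5, 111 had 6 to 9 and 32 had 10 to 41. Their median spliced length was 2098 nt (quartiles 740.5 and 5769.5, range 200 to 131276), and 247 exceeded 10 kb. Their median genomic span was 9383 bases, and the median intron of those with 2 exons was 2454 bases. Some 2-exon rows had far shorter gaps, with 26 bases in MSTRG.16370.1, 52 in MSTRG.19475.28 and 68 in MSTRG.15568.1. Whether such gaps are true introns was not tested. At the edge of the rule, rows with 2 exons had a median length of 1542 nt and a median level of 1.02 FPKM, and the 4940 single-exon intergenic rows just outside it had 532 nt and 0.903 FPKM.

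The median level over the 10 libraries was 1.0 FPKM, with quartiles at 0.466 and 1.65 and the 90th percentile at 3.08. The 22913 annotated rows of 2 or more exons had a lower median, 0.485 FPKM, and a far wider spread, from a first quartile of 0.0601 to a 90th percentile of 9.67. An assembled row exists only where reads were pieced together. That condition was not set on annotated rows, of which 257 stood at 0 in all 10 libraries. Levels and detection of the assembled and annotated sets are therefore not compared on equal terms. A level of at least 1 FPKM was reached by 893 of the rows, at least 10 FPKM by 47 and at least 100 FPKM by 13. In all, 1066 (59.8%) were above 0 in every library, 74 in only 1, and 12 stood at 0 in all 10, against 62.2% of annotated multi-exon rows above 0 in every library. The share that passed the filter on low values used for testing (a mean of 0.1 FPKM or more, and a value above 0 in 5 or more libraries) was 85.5%, or 1524 rows in 1082 loci. Single rows varied widely among libraries, with a median coefficient of variation of 71.7% over all 10.

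**Figure D1:**
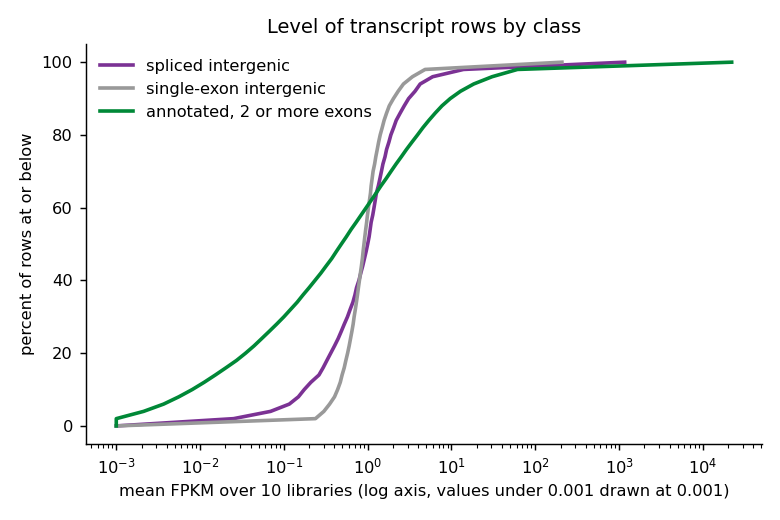
Cumulative percent of rows (y axis) at or below a mean FPKM over 10 libraries (x axis, log scale) for spliced intergenic rows, single-exon intergenic rows and annotated rows of 2 or more exons. The spliced intergenic curve is steep around its median of 1.0 FPKM, whereas the annotated curve starts lower and reaches higher. Intergenic rows had to be assembled from reads, a condition not set on annotated rows.

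Levels were concentrated in a few loci. The 10 highest rows held 59.5% of all FPKM of the 1783, and 41 rows in 8 loci within 150 kb of an annotated 5.8S ribosomal RNA row held 58.1%. The latter share differed by library, at 34.3% to 53.3% in the SG samples and 41.4% to 79.8% in the SHAM samples. Of those 41, 38 were within 20 kb of such a row. These 41 made up 7 of the 10 highest rows and 14 of the 20 highest, and 15 of them passed the filter. The highest row of all, MSTRG.7465.27 (chr14:46517584-46518404, 2 exons, 409 nt), stood at 805, 696, 129, 397 and 98.0 FPKM in SG 1 to 5 and 259, 1898, 4246, 2953 and 181 FPKM in SHAM 1 to 5. The groups overlapped, and 3 SHAM libraries lay above every SG library. MSTRG.19475.22 (chr6:30631950-30633860) averaged 1104 FPKM, yet was at 0.0 in SG 1 and SHAM 3 and at 3089 FPKM in SG 3. Its neighbour in the same locus, MSTRG.19475.28, was at 5361 FPKM in SHAM 3 and at no more than 150.2 FPKM elsewhere. Near 5.8S rows too lay MSTRG.136.5, MSTRG.18286.81 and MSTRG.138.68, with means of 697, 174 and 130.4 FPKM. MSTRG.136.5 was listed at 0.0 in SG 1, SHAM 2 and SHAM 4 and reached 2720.1 FPKM in SHAM 5, whereas MSTRG.138.68 was above 0 in every library, at 36.5 to 275 FPKM. The libraries had been depleted of ribosomal RNA, per the labels, and how completely was not tested.

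Away from ribosomal RNA, the highest rows lay among genes of the liver's secreted proteins and drug-metabolising enzymes. MSTRG.5555.16 (chr12:11053443-11082816, 13 exons, 2208 nt) lay between Cyp3a18 and Zfp655. Its level was 501, 121, 237, 277 and 449 FPKM in SG 1 to 5 and 223, 312, 412, 433 and 748 FPKM in SHAM 1 to 5, so the groups overlapped. RefSeq's newer assembly GRCr8 was used here for names and gene order only. It places 7 protein-coding genes between the same flanking genes, among them Cyp3a2 and Cyp3a23-3a1, cytochromes that oxidise drugs and steroids. Whether the row is one of them was not tested.

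MSTRG.5238.2 and MSTRG.5238.3 (chr11:81506674-81516761 and 1 base shorter, 6 and 7 exons) lay between Kng1, the kininogen precursor of bradykinin, and Hrg, histidine-rich glycoprotein. GRCr8 places 3 protein-coding genes there, Kng2 among them, and whether the rows belong to any of these was not tested. MSTRG.5238.2 was at 417, 778, 402, 54.7 and 48.1 FPKM in SG 1 to 5 and at 362, 422, 348, 207 and 28.5 FPKM in SHAM 1 to 5. MSTRG.5238.3 was at 0.0, 0.0, 0.0, 651 and 546 FPKM in SG and at 1078, 0.0, 400.1, 0.0 and 388 FPKM in SHAM. The 7-exon row was thus at 0 in 5 of the 10 libraries, among them SG 1, 2 and 3, whereas the other was above 0 in all. In the same interval of genes, MSTRG.5241.1 averaged 53.0 FPKM.

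MSTRG.10038.1 (chr17:72195563-72197302, 405 nt) began 53 bases past the end of Itih2, which encodes a heavy chain of inter-alpha-trypsin inhibitor, and was steady, at 126 to 198 FPKM. MSTRG.17269.1, at 13.9 to 43.2 FPKM, lay between A2m and Klrg1. GRCr8 places 3 protein-coding genes there, among them Mug1, a murinoglobulin that inhibits proteases in plasma. Whether the row is one of them was not tested.

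Most, but not all, rows with many exons whose intervals could be compared lay where GRCr8 holds from 1 to several genes. MSTRG.18923.1 had 41 exons at chr5:155885992-155913735, between Cdc42 and Ldlrad2, in an interval that holds Hspg2 (perlecan, a basement membrane proteoglycan), Cela3b and 1700013G24Rikl, and stood at 3.31 to 8.19 FPKM. MSTRG.5662.1, with 32 exons and 3.22 to 4.21 FPKM, lay between Mafk and Micall2, where GRCr8 places Ints1, a subunit of the Integrator complex. MSTRG.21626.1, with 19 exons and 5.53 to 7.66 FPKM, lay between Rbx1 and L3mbtl2, in an interval that holds Ep300, a histone acetyltransferase, Rps35al1 and a long non-coding RNA. MSTRG.21164.3 (19 exons, at most 0.822 FPKM) lay in an interval where it places Vps13b, a lipid transfer protein. The interval of MSTRG.22322.3 (24 exons) holds Sorl1, a sorting receptor, with Mir100hgl and 9 long non-coding RNAs, and that of MSTRG.8020.1 (21 exons, 1.46 to 3.96 FPKM) holds 5 protein-coding genes and 15 long non-coding RNAs. MSTRG.8424.14, with 38 exons over 279867 bases, began 5992 bases downstream of Vwa8 on its strand and was at 0.222 FPKM in SG 5 and 18.2 FPKM in SG 1. Its interval could not be compared between the builds.

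Of the 1783 rows, 1220 had flanking annotated genes that GRCr8 keeps on 1 chromosome with an interval 0.5 to 2 times as long. In 735 of these (60.2%) GRCr8 lists at least 1 protein-coding gene between them, in 863 (70.7%) at least 1 long non-coding RNA, and in 168 (13.8%) neither. Among the 19 comparable rows of 10 or more exons, 17 (89.5%) had a protein-coding gene in that interval. Long intervals hold more genes, rows of a locus share an interval, and the position of a row within the interval could not be compared across builds.

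The longest rows were MSTRG.16982.1 (131276 nt, 3 exons) and MSTRG.16981.1 (90068 nt, 2 exons), which lay opposite each other between Magi1 and Slc25a26 on chromosome 4. MSTRG.16982.1 was at 1.03 to 2.08 FPKM and MSTRG.16981.1 at 1.3 to 3.2 FPKM. MSTRG.5009.3 (46220 nt, between Phldb2 and Nectin3) was at 1.28 to 4.09 FPKM. These long rows were above 0 in all 10 libraries.

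Some loci were assembled as many alternative rows. MSTRG.19474 at chr6:30402581-30410222 held 63 rows of 940 to 7082 nt, 52 of them above 0 in every library, with a summed mean of 40.8 FPKM. MSTRG.18266 on chromosome 5 held 16 rows within 1272 bases, of which 2 passed the filter. MSTRG.7224, beside Sult1e1 (an oestrogen sulfotransferase) on chromosome 14, held 15 rows summing to 16.4 FPKM. In all, 908 rows overlapped another of the 1783 on the same strand and 552 overlapped one on the opposite strand, and 225 had exactly the interval of another on either strand, so rows are not independent of each other.

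The rows were unevenly spread over 22 chromosomes. Per 100 annotated rows there were 13.0 on chromosome 6 and 11.3 on chromosome 14, against 3.39 on X and 3.52 on chromosome 12. Chromosomes 6 and 14 include the 63-row locus and ribosomal RNA clusters named above.

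The median distance to the nearest annotated gene was 26736 bases (quartiles 6555 and 96538), against 68768 bases for single-exon intergenic rows. Of the 1783, 166 lay within 1 kb, 396 within 5 kb and 795 within 20 kb of an annotated gene, and 440 lay more than 100 kb and 21 more than 1 Mb away. Divergent rows were the most numerous (500, median distance 22422 bases), followed by 480 upstream on the gene's strand, 408 downstream on it (37280 bases) and 395 convergent (18371 bases). Within 1 kb, 60 were divergent, 47 convergent, 39 downstream and 20 upstream on the gene's strand. Those 39 downstream rows had the highest median level, 2.01 FPKM, against 1.22 FPKM for the divergent ones. The tested row farthest from any annotated gene, MSTRG.12699.1 (chr2:161682563-161686209, 234 nt), was 2756256 bases from one and at 0.0 to 1.47 FPKM. MSTRG.6214.1, 2463380 bases from Cntnap5b, was steadier, at 1.17 to 2.0 FPKM.

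The first question put to the groups was how much of each library these transcripts took up. They held 1.92% ± 0.136 (SD, n = 5) of estimated counts in SG and 2.46% ± 0.495 (SD, n = 5) in SHAM. SG 1 to 5 were at 1.9%, 2.07%, 2.05%, 1.77% and 1.82%, and SHAM 1 to 5 at 2.22%, 2.17%, 3.32%, 2.43% and 2.15%. The groups did not overlap (difference -0.539 percentage points, two-sided exact permutation p = 0.00794, the smallest that 252 splits allow, adjusted p = 0.019 over 6 library measures). Without SHAM 3 the difference was -0.324 (exact permutation p = 0.0159).

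The difference in share lay in the rows near 5.8S ribosomal RNA. Dividing the rows by distance to 5.8S rows was not planned, so the p-values of both parts are a description only. They took 0.195% to 0.347% of SG libraries and 0.31% to 1.68% of SHAM libraries (means 0.267% and 0.777%, exact permutation p = 0.0159, adjusted p = 0.019). The other rows took 1.65% in SG and 1.68% in SHAM on average, with overlapping ranges of 1.52% to 1.76% and 1.51% to 1.91% (difference -0.0295, exact permutation p = 0.722).

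**Figure D2:**
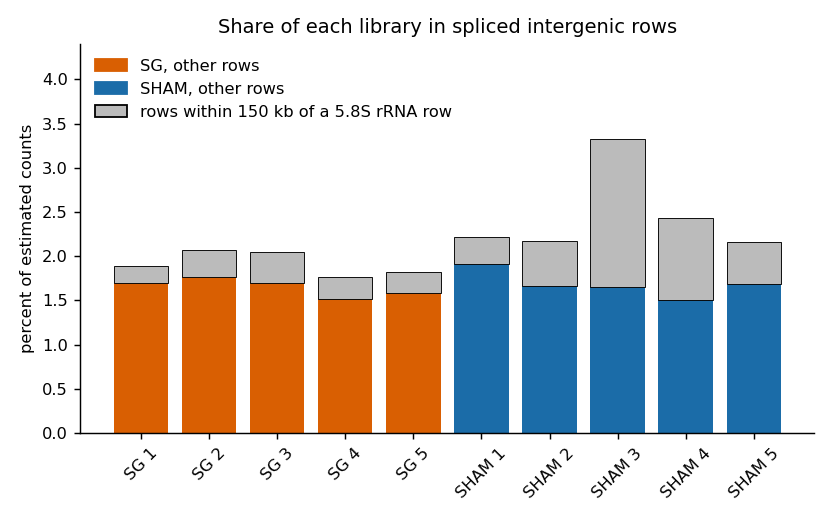
Percent of estimated counts (y axis) in spliced intergenic rows for each library (x axis), with rows within 150 kb of a 5.8S ribosomal RNA row stacked in grey above all other rows. The coloured parts lie between 1.51% and 1.91% in both groups, and the grey part reaches 1.68% in SHAM 3.

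More of the rows were above 0 in SG than in SHAM libraries. The number was 1496 ± 12.3 (SD, n = 5, range 1484 to 1514) in SG and 1469 ± 11.3 (SD, n = 5, range 1452 to 1480) in SHAM, without overlap (exact permutation p = 0.00794, adjusted p = 0.019). The other rows of the table moved the same way, with 41115 to 41794 above 0 in SG and 40232 to 41315 in SHAM (exact permutation p = 0.0159, adjusted p = 0.019). Depth moved with it, since the SHAM libraries included the 2 shallowest, SHAM 1 and SHAM 2, and its part in the result was not tested.

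No row passed the test between SG and SHAM. edgeR's quasi-likelihood test, fitted on 39559 isoform rows, called 0 of the 1524 at an adjusted p under 0.05, and the background was the same, with 0 of all rows called (0%). At an unadjusted p under 0.05 there were 63 (33 higher in SG), or 4.13%, against 4.12% of all rows tested (2.16% higher in SG). DESeq2 called 11 (7 higher in SG), against 0.528% of all rows (0.303% higher in SG). Limma on log2(FPKM + 0.1) called 0, against 0.00758% of all rows, with 72 at an unadjusted p under 0.05, against 4.79%. Of these 72, 57 were higher in SG, as were 1348 of the 1893 such rows among all those tested. The median log2 fold change was 0.00 both for the 1524 rows and, at -0.01, nearly so for all rows. The groups did not overlap in 13 of the 1524 (0.853%, 9 higher in SG), against 0.865% of all rows. No row was above 0 in all libraries of 1 group and at 0 in all of the other. The median 95% interval reached 1.44 log2 units to either side of the estimate, and in 331 rows (21.7%) it lay within 2-fold either way. At this depth and spread a 2-fold change was not detectable in most rows.

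A difference seen in every library was that of MSTRG.20483.2, a 4-exon RNA of 678 nt on the minus strand at chr7:3052086-3053879, between Erbb3 and Ikzf4. It was at 77.0, 101, 96.4, 87.1 and 100.4 FPKM in SG 1 to 5 and at 61.9, 64.7, 53.2, 59.1 and 72.1 FPKM in SHAM 1 to 5. All 5 SG libraries lay above all SHAM libraries. The log2 fold change was 0.50 (SE 0.13, unadjusted p = 0.00293, adjusted p = 1.0 by edgeR's quasi-likelihood test), and DESeq2 gave an adjusted p of 0.00735. Summed over its locus, the log2 fold change was 0.47 (adjusted p = 0.998 by edgeR). GRCr8 places Rps26, a protein of the small ribosomal subunit, between the same flanking genes, and whether the row is Rps26 or a copy of it was not tested.

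MSTRG.2939.1 (chr1:274167591-274169464, 4 exons, between Smndc1 and Dusp5) had the smallest p of the 1524. It was at 0.317, 1.48, 0.832, 0.453 and 0.861 FPKM in SHAM 1 to 5 and at 0.0 in every SG library except SG 2, where it was listed at 7.1e-05 FPKM. In counts, 1 fell in SG and 449 in SHAM, a ratio of 508 per library total (exact binomial 95% interval 90.8 to 20125, counting error only). The adjusted p was 0.0738 by edgeR, 0.0377 by edgeR without SHAM 1 (where 0.0152% of all rows were called), and 9.91e-12 by DESeq2. The 3 rows of its locus summed to 0.868 to 2.92 FPKM in SG and 1.29 to 2.07 FPKM in SHAM, with a log2 fold change of 0.14, so the direction did not hold for the locus.

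The same contrast between a row and its locus appeared in others with large row differences. MSTRG.6403.3 (9 exons, upstream of the calcium pump gene Atp2b4) had a log2 fold change of 6.25. The 9 spliced intergenic rows of its locus, summed, had 0.08. MSTRG.23133.6 had 7.50, with SG 5 at 9.05 FPKM, and its locus -0.09. MSTRG.15562.6, between Pax1 and Foxa2, was at 1.72 FPKM in SG 1, 0.411 FPKM in SG 2, 0.348 FPKM in SG 4 and at most 0.000828 FPKM in all other libraries, and its locus had 0.21. MSTRG.11935.2 was at 2.22 and 1.9 FPKM in SHAM 1 and SHAM 3 and at no more than 0.00645 FPKM elsewhere, and its locus had -0.27. In each of these loci the summed level was above 0 in all 10 libraries. MSTRG.138.30, near 5.8S ribosomal RNA, was at 753 FPKM in SHAM 4 and at no more than 3.83 FPKM elsewhere.

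Where a locus held 1 row, row and locus are the same. MSTRG.7014.1 (chr14:5527141-5533153, 237 nt, between Lrrc8b and Gbp6) was at 0.0314, 0.026, 0.0, 0.0 and 0.0 FPKM in SG 1 to 5 and at 1.99, 0.34, 0.539, 0.531 and 0.746 FPKM in SHAM 1 to 5. Every SHAM library was above every SG library, on 2 counts in SG and 88 in SHAM, a ratio of 49.8 (exact binomial 95% interval 13.4 to 418), with an adjusted p of 0.626 by edgeR and 0.000279 by DESeq2. MSTRG.2447.1, near the membrane protein gene Ms4a18, was at 0.131 to 0.219 FPKM in SG and at 0.492, 0.245, 0.199, 0.706 and 4.91 FPKM in SHAM, where SHAM 5 stood apart. MSTRG.5321.1 is described with the immunoglobulin regions below. MSTRG.880.2 (chr1:88442037-88447891, between the zinc finger genes Zfp566 and Zfp260) was named because DESeq2 called it. It was at 0.319 to 1.65 FPKM in SG and at 0.0 to 0.276 FPKM in SHAM, without overlap (edgeR log2 fold change 3.05, SE 0.88, adjusted p = 1.0). The 2 spliced intergenic rows of its locus, summed without its 3 other rows, had 0.90.

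A further set stood out by its structure and was chosen after its values were seen, so it was given no test. Of 43 rows with 2 exons and a span under 700 bases, 26 lay within 5 Mb of an annotated immunoglobulin chain, 13 on chromosome 6, 9 on chromosome 3 and 4 on chromosome 11. They were 347 to 486 nt long with introns of 80 to 214 bases (median 108). Immunoglobulin variable segments are known to be made of a short leader exon, a small intron and a variable exon. Of the 25 that passed the filter, 24 had a higher fitted level in SG, with a median log2 fold change of 1.57, where 49.2% of all rows tested had a higher fitted level. None passed the edgeR test over all rows, and 9 had an unadjusted p under 0.05, all higher in SG, where 2.16% of all rows tested were higher at that threshold. These counts come from the values that led to the choice, and the rows share libraries, so they are a description only.

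Summed over the 26, the level was 52.1, 105, 23.7, 46.8 and 54.2 FPKM in SG 1 to 5 and 12.2, 6.06, 35.2, 14.3 and 23.0 FPKM in SHAM 1 to 5. SG 2 was highest, SHAM 2 lowest, and the groups overlapped because SG 3 lay below SHAM 3. MSTRG.5321.1 (chr11:85590235-85590716) was at 0.967, 3.01, 0.254, 1.77 and 0.453 FPKM in SG and at 0.127, 0.0, 0.0836, 0.105 and 0.256 FPKM in SHAM, with a log2 fold change of 3.28 (SE 0.92, adjusted p = 1.0 by edgeR). MSTRG.14555.1 on chromosome 3 reached 19.9 FPKM in SG 2 and was at 1.23 FPKM in SHAM 2. MSTRG.20335.1 on chromosome 6 went the other way, at 0.281 FPKM on average in SG and 0.656 FPKM in SHAM, where SHAM 3 was at 2.19 FPKM.

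Genes of antibody-producing cells are given beside these rows. Jchain, the joining chain of secreted antibodies, was at 22.9, 59.2, 16.0, 22.3 and 23.4 FPKM in SG and at 8.15, 4.82, 21.0, 10.7 and 11.1 FPKM in SHAM. The B and plasma cell list, of which 2 of 3 genes were in the table (Cd79a was not), summed to 16.2 to 59.5 FPKM in SG and 4.86 to 21.1 FPKM in SHAM, and its B cell surface marker Ms4a1 was at no more than 0.287 FPKM. Ighm, the heavy chain of IgM, was at 2.38 to 36.8 FPKM in SG and 1.31 to 10.5 FPKM in SHAM. Ighg1 was at 2.05 to 25.4 FPKM in SG and 0.679 to 3.03 FPKM in SHAM. Igh-6 followed the groups least, at 4.71, 13.5, 2.96, 0.083 and 0.353 FPKM in SG 1 to 5. In SHAM 1 to 5 it was at 1.07, 3.45, 0.823, 2.11 and 0.17 FPKM. The part of antibody-producing cells in the values of the 26 rows was not tested.

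**Figure D3:**
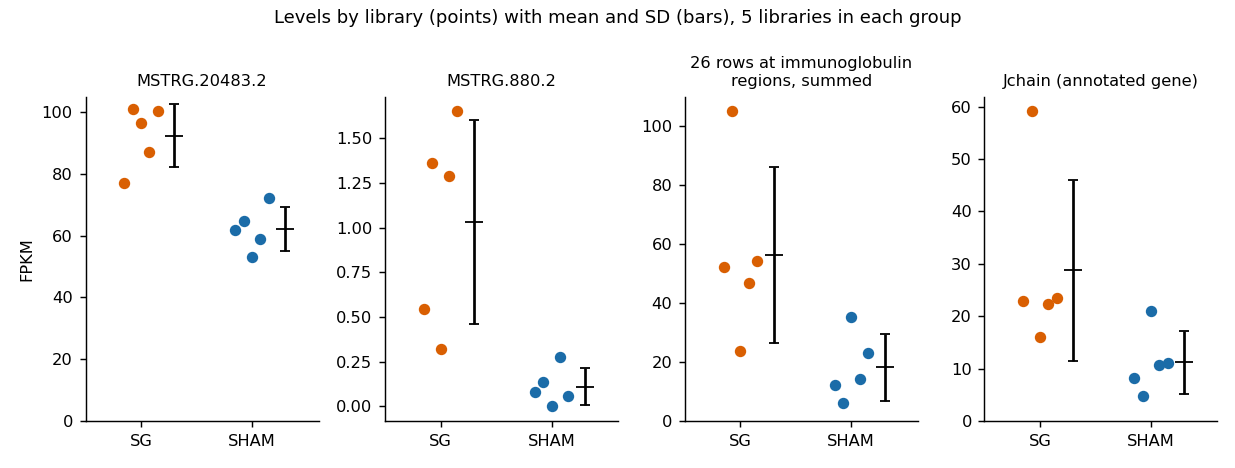
FPKM (y axes, from 0) of MSTRG.20483.2, MSTRG.880.2, the sum of 26 rows at immunoglobulin regions, and the annotated gene Jchain in 5 SG and 5 SHAM libraries (points), with mean and SD (bars). The first 2 panels show no overlap between the groups, and in the others SG 2 is the highest library at 105 and 59.2 FPKM.

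The second question was whether a transcript's level followed that of its nearest annotated gene over the 10 libraries. The nearest gene passed the filter for 1254 rows, and both partners passed in 1067 pairs. The median Pearson r of log2(FPKM + 0.1) was 0.178 (quartiles -0.115 and 0.46), and 699 (65.5%) were above 0. Over 8087 pairs of an annotated gene and its nearest annotated gene the median was 0.112 and 60.9% were above 0. Partners share library depth and liver composition, pairs of a locus share reads, and these medians are a description. Of the 1067 pairs, 4 (0.375%) passed a permutation test at an adjusted p under 0.05, against 0.247% of annotated pairs and 0.641% of single-exon intergenic pairs. An unadjusted permutation p under 0.05 was found in 136 pairs (12.7%), 23 of them negative, against 9.34% of annotated pairs.

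Proximity went with a higher median r. Within 1 kb it was 0.337 over 110 pairs, 88 of them above 0 and 3 of the 4 called. It was 0.175 at 1 to 5 kb, 0.217 at 5 to 20 kb, 0.160 at 20 to 100 kb and 0.143 beyond 100 kb. Single-exon intergenic rows within 1 kb had nearly the same median, 0.324, and annotated neighbours within 1 kb 0.159. Among the spliced rows within 1 kb, the 15 downstream on the gene's strand had the highest median, 0.589, the 50 divergent ones had 0.337, the 28 convergent ones 0.331 and the 17 upstream ones 0.133. The 46 pairs in which the assembler gave row and gene 1 identifier had a median of -0.01.

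**Figure D4:**
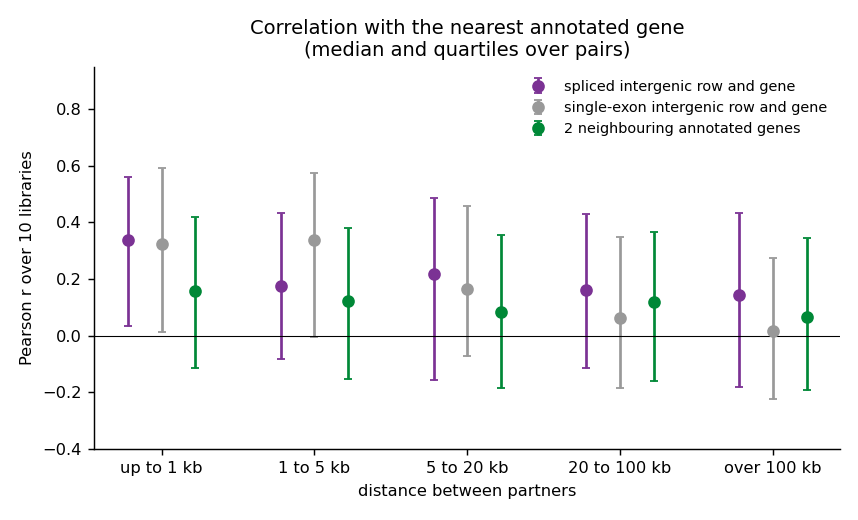
Pearson r over 10 libraries (y axis; points are medians and bars quartiles over pairs) by distance between the partners (x axis) for spliced intergenic rows, single-exon intergenic rows and pairs of annotated genes. Medians of the spliced rows run from 0.337 within 1 kb to 0.143 beyond 100 kb, and the quartile bars overlap among the 3 kinds of pair at every distance.

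The highest pair was MSTRG.10038.1 with Itih2. The transcript was at 176, 198, 132, 167 and 171 FPKM in SG 1 to 5 and at 129.6, 132, 126, 178 and 146 FPKM in SHAM 1 to 5. Itih2 was at 278, 325, 219, 258 and 270.1 FPKM in SG and at 241, 210.5, 202, 299 and 255 FPKM in SHAM. Both were highest in SG 2 and lowest in SHAM 3 (r = 0.94, permutation p = 1e-05, the smallest that 100000 resamples can give, adjusted p = 0.0107, Spearman rho 0.964, permutation p = 4e-05). Without those 2 libraries r was 0.896 (adjusted permutation p = 0.326), and with values centred within SG and SHAM it was 0.943 (adjusted permutation p = 0.205), so the call was lost in both. The transcript starts 53 bases past the gene's annotated end on the same strand, and whether it is a continuation of the Itih2 messenger RNA was not tested.

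MSTRG.4458.1 began 29 bases downstream of Ttyh2, a chloride channel family member, on the same strand (chr10:103248892-103260685). It was at 5.83, 4.58, 2.86, 3.71 and 4.98 FPKM in SG and at 3.84, 2.95, 3.45, 3.67 and 3.34 FPKM in SHAM, and Ttyh2 ran from 16.0 FPKM in SG 3 to 29.3 FPKM in SG 1. SG 1 was the highest and SG 3 the lowest library for both (r = 0.913, adjusted permutation p = 0.0427, rho 0.952, r = 0.867 without SG 1 and SG 5).

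The other 2 called pairs had a small RNA gene as partner. MSTRG.3319.1 (chr10:21387135-21392353) ran divergently from RF00100, a copy of the nuclear RNA 7SK, from 104 bases away. Both were lowest in SHAM 3, at 0.0536 and 0.0 FPKM, and highest in SHAM 5, at 1.77 and 1.28 FPKM (r = 0.934, adjusted permutation p = 0.0427, r = 0.835 without SHAM 3 and SHAM 5). MSTRG.615.1 lay 22374 bases from RF00560, a small RNA named after its Rfam family, on chromosome 1 (r = 0.861, adjusted permutation p = 0.0427, rho 0.806, r = 0.83 without SG 2 and SHAM 3). It was at 1.9 FPKM in SG 3 and 0.229 FPKM in SHAM 3. None of the 4 pairs stayed under an adjusted p of 0.05 without SHAM 3, SHAM 4 or SHAM 5, each left out in turn, while their r stayed between 0.843 and 0.972 over all 10 omissions.

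Pairs just short of the threshold included genes with known roles in the liver. MSTRG.22999.1 lay 349 bases upstream of Slc38a3, a glutamine transporter of hepatocytes, with r = 0.909 (adjusted permutation p = 0.052). MSTRG.7295.1, a 20078-nt row 7249 bases upstream of the circadian transcription factor Clock on its strand, had r = 0.866 (adjusted permutation p = 0.0726, rho 0.867, r = 0.853 without SG 3 and SHAM 5). It ran from 0.653 FPKM in SG 3 to 2.52 FPKM in SHAM 5, and Clock from 1.68 FPKM in SG 3 to 6.64 FPKM in SG 5. The labels do not record the time of day of sampling.

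MSTRG.17907.1 ran divergently from Ddx58, the RNA sensor RIG-I, from 38 bases away (chr5:56536811-56538079). It was at 1.71, 2.15, 1.56, 1.07 and 2.69 FPKM in SG 1 to 5 and at 1.61, 1.84, 1.4, 1.29 and 4.15 FPKM in SHAM 1 to 5, and Ddx58 was at 47.8 FPKM in SHAM 5 and 12.3 to 20.4 FPKM elsewhere. The pair's r of 0.857 (adjusted permutation p = 0.164) was 0.576 without SG 5 and SHAM 5, so it rests on those libraries.

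**Figure D5:**
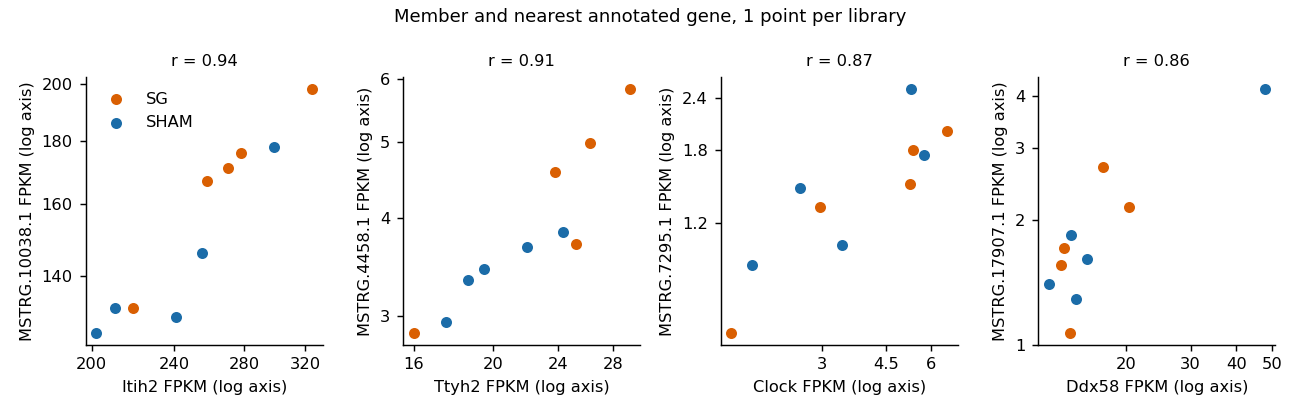
FPKM of 4 spliced intergenic rows (y axes, log scale) against FPKM of the nearest annotated gene (x axes, log scale), 1 point per library, SG orange and SHAM blue. Itih2, Ttyh2 and Clock show points spread along a line in both groups, and the Ddx58 panel has SHAM 5 alone at 47.8 FPKM.

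Negative pairs did not pass the test. The lowest r, -0.898, was that of MSTRG.17905.1 with Aco1, the cytosolic aconitase that senses iron (adjusted permutation p = 0.287). It was at 9.97 FPKM in SHAM 5 and 2.8 to 4.29 FPKM elsewhere, and r was -0.565 without SHAM 3 and SHAM 5 and rho -0.491. MSTRG.9094.3, 3073 bases downstream of the fatty acid hydroxylase gene Cyp4v3, had r = -0.882 (adjusted permutation p = 0.0954, rho -0.869). The assembler put this row and Cyp4v3 under 1 locus identifier, so their reads are divided by estimate. The row was listed at 0.0 FPKM in SG 1 and in SHAM 2, 3 and 4.

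Of the 50 divergent pairs within 1 kb, 42 (84.0%) had an r above 0 and 6 of 50 an unadjusted permutation p under 0.05, against 66.8% and 10.8% of divergent annotated pairs within 1 kb. The share above 0 was not particular to divergent pairs. Within 1 kb it was 82.1% in convergent, 80.0% in downstream and 64.7% in upstream pairs, and 78.1% in single-exon intergenic pairs. Some genes are in more than 1 of the 50 pairs. For the genes whose promoters are printed above, MSTRG.22718.1 with Pigb (30 bases apart) had r = 0.693, at 0.961 to 2.26 FPKM. MSTRG.5691.4 with Azgp1, a secreted zinc-binding glycoprotein at 248 to 431 FPKM, had r = 0.752, but 0.183 without SHAM 3 and SHAM 4, in which the transcript was at 0.0. MSTRG.15680.8 with Tp53inp2, 658 bases away, had r = 0.752 and 0.692 without SG 1 and SG 4. MSTRG.17159.1 with Erc1 had r = -0.725, with Erc1 at 0.366 FPKM in SG 2, 1.17 FPKM in SHAM 3, 0.665 FPKM in SHAM 4 and no more than 0.0349 FPKM elsewhere. Adjusted permutation p-values of these 4 pairs were 0.295 to 0.348, except 0.159 for Tp53inp2.

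Sorting the nearest genes by liver function gave few members in most lists. Of 32 plasma protein genes, 5 were the nearest gene of a row (Alb, Apob, Cp, Itih2 and Kng1), with 14 tested rows. Their r was above 0 in 12 of 14, with a median of 0.502, 4 had an unadjusted permutation p under 0.05 and 1, Itih2, was called, beside a median of 0.178 and 0.375% called over all 1067 pairs. Of the 14, 7 lay upstream of or divergent to Apob, the structural protein of very low density lipoprotein, in 2 loci that overlap on opposite strands. None of the 14 passed the edgeR test between SG and SHAM, none had an unadjusted p under 0.05, and their median log2 fold change was 0.24.

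Of 21 bile acid and cholesterol genes, Cyp51, Cyp7b1 and Slco1b2 had 7 tested rows, 3 with r above 0 and a median of -0.03. MSTRG.17454.1, 2450 bases downstream of the bile acid and drug uptake transporter Slco1b2, was at 0.0 to 4.79 FPKM. None of the 16 glucose and insulin genes was the nearest gene of a row. Of 17 lipid genes, Cyp4a8 and Ppara had 3 rows. MSTRG.21685.1, 350 bases upstream of Ppara, the fasting-activated regulator of fatty acid oxidation, was at 0.0 FPKM in SG 2, SG 5 and SHAM 2 and had r = -0.10 with Ppara (-0.257 to 0.416 with 1 library left out). The other row of that locus, MSTRG.21685.2, had r = 0.639 (permutation p = 0.0448, adjusted p = 0.382), and MSTRG.18536.1 with Cyp4a8 had r = -0.09.

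Usp18, an interferon-induced protease, was the 1 interferon list gene with a row. MSTRG.17185.1, convergent 279 bases from it, was at 1.16 to 2.2 FPKM in SG and 0.674 to 2.36 FPKM in SHAM, with r = 0.317, which ran from -0.0732 to 0.425 with 1 library left out and was 0.813 with values centred within SG and SHAM. Without SHAM 3 and SHAM 5 it was -0.119, so it rests on those libraries. Usp18 itself was at 41.3 FPKM in SHAM 5 and at no more than 5.27 FPKM elsewhere. Among 15 liver transcription factors, Foxa2, Gata6 and Onecut2 had 3 rows, 2 of them tested. MSTRG.15568.1, convergent to Foxa2 from 2706 bases away, was at 0.845 to 5.34 FPKM in SG and 0.776 to 2.64 FPKM in SHAM (r = 0.347). MSTRG.10205.1, divergent from Gata6, was at 0.96 to 2.45 FPKM in SG and 0.0 to 1.83 FPKM in SHAM (r = 0.61). In none of these lists did a row pass the edgeR test between SG and SHAM.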

How the data were processed

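Total RNA of rat liver, in 10 samples, was depleted of ribosomal RNA, fragmented and sequenced as paired-end libraries with inserts of about 300 bp, per the labels' protocols. Per the submitters' processing notes, the tools included HISAT2 2.0.4 and StringTie 1.3.4, cutadapt 1.9 and FastQC 0.10.1, and the build was Rnor_6.0. The authors deposited 1 table with the FPKM of each isoform in each library, per the file headers. The same deposited table gives estimated counts, which were rounded to whole numbers, and isoforms of a locus share reads by estimate. The strand setting is not stated in the labels, and reads of overlapping opposite-strand rows may be divided by estimate.

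Members were selected by class code, name and exon number, and the members and lists were chosen with earlier results of these data known. The 39559 rows with a mean of 0.1 FPKM or more, and a value above 0 in 5 or more libraries, were fitted together with edgeR 4.0.16 (TMM, quasi-likelihood test, R 4.3.3), with Benjamini-Hochberg adjustment over all of them and a threshold of 0.05. DESeq2 1.42.0 and limma 3.58.1 were alternatives. On simulated counts of these 39559 rows with 200 changed, the edgeR test recovered 0% of 2-fold, 10% of 4-fold, 52% of 16-fold and 78% of 64-fold changes. Library measures were compared by exact permutation over 252 splits, two-sided. Dividing the rows by distance to ribosomal RNA was not planned. A row's nearest gene was the closest gene with annotated rows on its chromosome, either strand, with FPKM summed over those rows. Correlations used Pearson and Spearman coefficients with two-sided permutation tests of 100000 resamples, adjusted over 1067 pairs. Named rows were those with the 5 smallest p in each direction, the 10 highest at 1 row per locus, 3 longest, 3 with most exons, 3 loci with most rows, 3 farthest from and 3 nearest to a gene, the called pairs, and up to 2 per list of neighbour genes. Rows outside the rule were chosen after their values were seen. They are MSTRG.880.2, MSTRG.19475.28, MSTRG.21685.2, the rows beside microRNA genes and at immunoglobulin regions, MSTRG.5241.1, MSTRG.17269.1, the rows of 19 to 32 exons, the pairs short of the threshold, the negative pairs and the pairs with printed promoters. The RefSeq tables are of GRCr8 and were used for names, gene order and printed sequences. Intervals and ratios of counts cover counting error only.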

Additional observations from a re-analysis of the deposited data

Results flagged for a closer look

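Among 56 groups of 5 libraries checked, 13 had 1 library whose gap to the nearest other, over the range, exceeded Dixon's 95% critical value of 0.71. For normally distributed values chance gives about 1 in 20. The rows checked were picked for a small p, a high level or a called pair, and some were mostly at 0. That rate therefore cannot be set against the 13. MSTRG.6403.3 had SG 2 at 0.982 FPKM (others at most 0.23) and SHAM 5 at 0.0034 FPKM (others at most 0.000754). SG 5 stood at 9.05 FPKM for MSTRG.23133.6, against at most 1.58 FPKM in the other SG libraries. SG 1 stood at 1.72 FPKM for MSTRG.15562.6, against at most 0.411 FPKM. MSTRG.2939.1 was listed at 7.1e-05 FPKM in SG 2 and at 0.0 in the other SG libraries, a gap of 1 estimated count. For MSTRG.7014.1, SHAM 1 was at 1.99 FPKM and the other SHAM libraries at 0.34 to 0.746 FPKM. SHAM 5 was at 4.91 FPKM for MSTRG.2447.1, with at most 0.706 FPKM in the rest.

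Rows near 5.8S ribosomal RNA gave 4 of the 13. MSTRG.138.30 was at 753 FPKM in SHAM 4 and at most 3.83 FPKM in the other SHAM libraries. MSTRG.18285.67 was at 467 FPKM in SG 2 and 867 FPKM in SHAM 2, and at 0.0 or, in SHAM 3, 5e-06 FPKM in all others. MSTRG.19473.26 was at 531 FPKM in SHAM 3, against at most 79.6 FPKM. Of the library measures, SHAM 3 had 3.32% of its counts in spliced intergenic rows (other SHAM libraries 2.15% to 2.43%), and SG 2 had 1371 rows above 0.1 FPKM, the fewest in SG.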

How the results depend on the processing

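With DESeq2, 11 rows were called between SG and SHAM where edgeR called 0. Leaving out each library in turn gave 0 to 1 called rows (1, MSTRG.2939.1, without SHAM 1), 55 to 74 at an unadjusted p under 0.05 and a median log2 fold change of -0.02 to 0.04. Unadjusted calls numbered 63 in edgeR, 96 with no filter and 30 at a mean of at least 1 FPKM. The median log2 fold change was 0.0889 with limma on log2(FPKM + 0.1). Summed per locus, MSTRG.23133.6 turned to -0.0866 and MSTRG.2939.1 to 0.14. Among pairs that were not called, the sign of r was less stable, as with Usp18 (0.317, and -0.0732 to 0.425 with 1 library left out) and Ppara (-0.0957, and -0.257 to 0.416). The 4 called pairs became 2 with Spearman's rho, 1 with a pseudocount of 0.5, 1 with the nearest gene that passed the filter, 0 with log2 CPM, 0 after centring within groups, 0 without the 2 libraries farthest from the row's median, 0 without SG 2 and SHAM 5, 9 with 1 row per locus and 12 with both partners at 1 FPKM or more. They ranged from 0 (without SHAM 3, SHAM 4 or SHAM 5) to 4 with 1 library left out. The median r was 0.156 with CPM, 0.126 with the nearest gene that passed the filter, 0.228 at 1 FPKM or more and 0.14 without the 2 farthest libraries, and 0.172 to 0.197 with 1 library left out. The cause of these changes was not tested, except that the stricter filters test fewer pairs or rows.

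The difference in share of counts was -0.0635 (exact permutation p = 0.31) without the 10 highest rows and -0.0295 (exact permutation p = 0.722) without rows near 5.8S ribosomal RNA, and -0.616 to -0.324 with 1 library left out, the latter without SHAM 3. The difference in the number of rows above 0 was 22.4 to 29.9 with 1 library left out. Replicate numbers did not pair the libraries (same-number correlations -0.0278 to 0.0428). With the replicate block edgeR called 0 rows, 53 at an unadjusted p under 0.05. Permuting within those pairs, the replicate block left the differences of -0.539 and 27.0 at an exact permutation p of 0.0625, the smallest that 5 pairs allow. No other direction changed for the 10 rows with the smallest p or the 4 called pairs. Values of called pairs missed the threshold under 24 other settings and 29 omissions of 1 library, and values of rows passed it in 8 cases with DESeq2 and 1 without SHAM 1. The median distance to the nearest gene was 28632 bases with 1 row per locus, 28097 bases for tested rows, and 37687 bases to the nearest gene that passed the filter.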
